A study of Mus musculus with 28 samples.

Results

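The genes described here are 42 antiviral interferon-stimulated genes, which macrophages switch on when they sense interferon. They were taken by gene symbol from a fixed list, each symbol had 1 entry, and they are 42 of the 36806 genes in the deposited tables. The list was grouped by role into 7 sensors of foreign RNA or DNA, 5 genes of the OAS family, 3 of the IFIT family, 10 other direct effectors, 7 genes of ISG15 conjugation, ubiquitin and ADP-ribosylation, 3 of antigen processing, and 7 of signalling and other roles.

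Macrophages were grown from the bone marrow of FVB/Hsd mice, and RNA was taken at day 7. They had been transduced with a retroviral hairpin vector and selected with puromycin. The hairpins were sh1137 against Wdr82, hairpins against Set1a together with Set1b, and a hairpin labelled Pnuts. For sh1137 the control was LMP, the vector without a hairpin, except in a set that also tested DRB, a drug that blocks elongation by RNA polymerase II. That set, the Set1a+Set1b set and the Pnuts set had a scrambled hairpin as control. Cells were untreated or received lipopolysaccharide (LPS), the bacterial cell wall component that activates macrophages through Toll-like receptor 4, at 10 ng/ml. In 24 of the 28 libraries, new RNA was enriched by giving the cells 4-thiouridine (4sU) during the last 45 min, and the other 4 hold polyA RNA. The times of LPS were 0 (untreated), 45 min, 2 h and 4 h in a first Wdr82 set, sequenced without strand, 0 and 1 h in a stranded Wdr82 set, 0 and 4 h in polyA RNA, and 0 and 45 min with the other hairpins. All 4 libraries of the DRB set had 45 min of LPS, with or without DRB. Each condition has 1 library, no library without a vector was among them, and the labels do not say whether the libraries of a set share a transduction. Values are FPKM, a fragment count divided by transcript length and library size, so levels of different genes are compared per length.

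Type I interferons bind the receptor IFNAR, and the kinases JAK1 and TYK2 then activate the transcription factor complex ISGF3, which binds the interferon-stimulated response element in the promoters of antiviral genes. In macrophages exposed to LPS, signalling through TRIF and IRF3 first switches on the interferon beta gene Ifnb1, and the secreted interferon then drives most antiviral genes in a second wave. WDR82 is a subunit of the SET1A and SET1B histone H3 lysine 4 methyltransferase complexes and also of a phosphatase complex with PNUTS.

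The promoters of 5 of these genes are printed. They are Ifit1 and some of the genes called in either direction in the Wdr82 fit described below. Of the 42 genes, 32 matched a promoter window in RefSeq (build GRCm38.p6), which runs from 250 bases before to 50 bases after the start of the gene. Oas2, Rtp4 and Mx1 were among the genes without a window. The core searched was GAAA, any 2 bases and GAAA again, on either strand (on the other strand TTTC, any 2 bases and TTTC). It was found in 14 of the 32 genes (43.75%), against 3.99% of the 27025 genes in the same table. Cores were allowed to overlap, and capitals mark each match. Isg15, which encodes a ubiquitin-like modifier, had 3 overlapping cores between positions -78 and -57 (chr4:156200769-156201068, minus strand), Oas1a had 2 between -20 and -5 (chr5:120907476-120907775, minus strand), and Ifit1 had 2 separate ones (chr19:34640639-34640938, plus strand). Ifi203 had 1 core (chr1:173942443-173942742, minus strand) and Ifi47 none in this window (chr11:49076337-49076636, plus strand). Ifi203 has a further window in the table, which is not shown, since the window with the most cores was printed for each gene. Of the called genes with a window that are not printed, Stat2 had 1 core, and Oasl1, Isg20 and Herc6 had none.
Isg15: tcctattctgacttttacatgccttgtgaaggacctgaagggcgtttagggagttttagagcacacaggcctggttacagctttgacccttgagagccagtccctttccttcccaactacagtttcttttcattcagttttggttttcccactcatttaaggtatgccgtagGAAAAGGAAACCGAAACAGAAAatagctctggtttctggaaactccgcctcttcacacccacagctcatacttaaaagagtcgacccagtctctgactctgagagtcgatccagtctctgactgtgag
Oas1a: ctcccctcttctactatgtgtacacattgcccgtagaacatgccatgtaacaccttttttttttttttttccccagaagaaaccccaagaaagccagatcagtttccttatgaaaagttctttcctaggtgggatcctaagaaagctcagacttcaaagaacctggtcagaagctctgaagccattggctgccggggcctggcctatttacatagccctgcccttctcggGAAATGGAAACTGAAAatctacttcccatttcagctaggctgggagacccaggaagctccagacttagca
Ifit1: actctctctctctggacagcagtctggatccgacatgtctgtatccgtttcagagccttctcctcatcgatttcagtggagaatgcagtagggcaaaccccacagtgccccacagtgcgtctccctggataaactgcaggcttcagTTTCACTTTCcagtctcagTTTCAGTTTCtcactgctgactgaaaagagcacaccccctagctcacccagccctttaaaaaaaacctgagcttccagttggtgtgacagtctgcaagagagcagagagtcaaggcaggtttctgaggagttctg
Ifi203: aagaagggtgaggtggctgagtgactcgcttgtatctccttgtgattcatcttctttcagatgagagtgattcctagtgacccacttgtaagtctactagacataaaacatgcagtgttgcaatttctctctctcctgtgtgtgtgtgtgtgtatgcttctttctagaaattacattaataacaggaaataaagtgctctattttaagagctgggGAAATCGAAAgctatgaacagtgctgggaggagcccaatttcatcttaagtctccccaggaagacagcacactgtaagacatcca
Ifi47: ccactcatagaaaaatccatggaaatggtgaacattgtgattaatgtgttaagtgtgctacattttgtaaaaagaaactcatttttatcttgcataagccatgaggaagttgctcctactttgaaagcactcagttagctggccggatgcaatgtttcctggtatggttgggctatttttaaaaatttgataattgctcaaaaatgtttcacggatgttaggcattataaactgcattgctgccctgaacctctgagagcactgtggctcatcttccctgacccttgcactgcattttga
The core TTCNNNGAA of the gamma-activated site, which reads the same on both strands, was found in 9 of the 32 genes (28.1%), against 9.55% of all genes in the table. The 9 were Adar, Bst2, Eif2ak2, Ifi35, Ifit2, Isg20, Oas1a, Psmb8 and Samhd1, of which Bst2, Eif2ak2 and Oas1a also had the first core. A match is a description of the letters only, and binding was not measured in this series.

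The target gene Wdr82 was lower in all 10 Wdr82 pairs, for example 10.3 FPKM with sh1137, against 21.6 FPKM with LMP in untreated unstranded 4sU RNA and 3.71 FPKM with sh1137, against 16.8 FPKM with LMP in untreated polyA RNA. Setd1a and Setd1b, the mouse genes of Set1a and Set1b, were 14.8 and 11.8 FPKM in untreated cells with their hairpins, against 16.1 and 11.3 FPKM with the scrambled hairpin. At 45 min of LPS they were 13.5 and 6.70 FPKM, against 18.1 and 10.5 FPKM, and neither passed the test in the fit described below, with log2 ratios of -0.26 (SE 0.0965, adjusted p = 0.214) and -0.26 (SE 0.181, adjusted p = 0.507). Setd1a fell by 0.34 (SE 0.0610, adjusted p = 0.00588) on the log2 scale in the Wdr82 pairs. Ppp1r10, the gene of PNUTS, went against its label and was 144 and 332 FPKM with the Pnuts-labelled hairpin, against 89.5 and 203 FPKM with the scrambled hairpin (untreated and 45 min of LPS), so these libraries are called labelled Pnuts throughout. It rose by 0.69 (SE 0.141, adjusted p = 0.0204) there and by 1.17 (SE 0.0889, adjusted p = 0.000275) in the Wdr82 pairs. Between 11533 and 13799 genes reached 1 FPKM in a library. The tables hold no read counts, so depth is unknown and no counting interval was given. Low values recurring in steps put the deepest library of a set at 1.59-fold (Set1a+Set1b) to 3.33-fold (polyA) the shallowest. Of 8 macrophage markers, 7 were found and 6 or 7 reached 1 FPKM in each library. The summed FPKM of 6 of them without Lyz2, which was listed at 0 in 3 of the 4 polyA libraries, was 511 to 2039 in the hairpin libraries and 663 to 4597 in the control libraries, and was lower with the hairpin in each of the 14 pairs. With Lyz2 the sum was 1404 to 11180 in the hairpin libraries and 2228 to 6266 in the control libraries, and was higher with the hairpin in 6 of 14 pairs, all 4 of the Set1a+Set1b and Pnuts sets among them. Without Lyz2 the largest gap was in polyA RNA, with 1404 and 2039 in sh1137 cells against 2934 and 4597 in LMP cells (untreated and 4 h). With Lyz2 the 4 h polyA pair went the other way, at 11180 with sh1137 against 4597 with LMP, where Lyz2 was listed at 0. That pair is among the 6 with a higher sum. Of 6 plasmacytoid dendritic cell markers 2 or 3 reached 1 FPKM in each library, with a summed FPKM of 102 to 774 in the hairpin libraries and 94.0 to 903 in the control libraries. Siglech, Ly6d and Klk1 stayed under 1 FPKM in every library, while Tcf4 was 27.0 to 175 FPKM, Ccr9 reached 7.62 FPKM and Bst2, itself one of the 42 genes, was 32.2 to 806 FPKM. Of 5 conventional dendritic cell markers 0 to 4 reached 1 FPKM in the hairpin libraries and 0 to 2 in the control libraries. Their summed FPKM was 1.64 to 17.1 in the hairpin libraries and 0.468 to 6.76 in the control libraries, and was higher with the hairpin in 12 of 14 pairs. Flt3 stayed under 1 FPKM, while Xcr1 reached 13.8, Clec9a 4.70, Zbtb46 3.71 and Itgax 2.81 FPKM. In bulk RNA, fewer cells of a type and less RNA per cell cannot be told apart, and the part of the marker levels in the results below was not tested.

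Before LPS the 42 genes were expressed at moderate levels. Their median in untreated unstranded 4sU RNA was 14.4 FPKM with sh1137 and 15.6 FPKM with LMP. Samhd1, a nucleotide hydrolase that starves viruses of building blocks, and Bst2, the membrane protein that tethers budding virus, were among the highest at 61.2 and 56.1 FPKM with sh1137, against 54.1 and 69.3 FPKM with LMP. Ifi44 and Isg20, an exonuclease, were the lowest in LMP cells, at 1.65 and 1.40 FPKM.

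In the first 45 to 60 min of LPS few of the 42 genes moved, and the ones that did were mostly nucleic acid sensors. In a limma fit over 4 LPS to untreated pairs of control cells (45 min in the unstranded, Set1a+Set1b and Pnuts sets, 1 h in the stranded set), 5 of 42 genes rose at a Benjamini-Hochberg adjusted p under 0.05 and 0 fell, against 4.56% and 1.92% of all 13260 genes tested. At an unadjusted p under 0.05 the counts were 11 and 0, against 2307 and 1376 of all genes, and no other tool was run. Of these 5, 4 were among the 7 sensors, where the log2 ratio was above 0 for all 7. Ifi203, of the PYHIN family of DNA-binding interferon-inducible proteins, rose by 1.14 (SE 0.102, adjusted p = 0.0126). Its relatives Ifi205 and Ifi204 rose by 1.13 (SE 0.181, adjusted p = 0.0383) and 0.92 (SE 0.122, adjusted p = 0.027). These PYHIN genes are similar in sequence and Ifi203 shares its entry with Mnda and Mndal, so the division of reads among them is uncertain. Ddx58, which encodes the RNA sensor RIG-I, rose by 0.42 (SE 0.0763, adjusted p = 0.0478), and the mono-ADP-ribosyltransferase gene Parp14 by 0.69 (SE 0.118, adjusted p = 0.0441). All 5 were above 0 in 4 of 4 pairs. Each of the 5 calls was lost when the unstranded, the Set1a+Set1b or the Pnuts set was left out, with adjusted p up to 0.220, and 7 genes were called without the stranded set. None of the 3 IFIT genes, which bind viral RNA ends, was called, with log2 ratios of 0.14 for Ifit1, 0.24 for Ifit2 and -0.07 for Ifit3. All 3 antigen processing genes lay below 0, Psmb9 at -0.33 (SE 0.129, adjusted p = 0.191).

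Pair by pair, the PYHIN genes were also among the highest at 45 min in hairpin cells. At 45 min of LPS, 3 of 42 genes were at least 2-fold higher than in untreated cells and 0 lower with sh1137 in the unstranded set (all genes 8.71% and 4.27%), against 3 and 0 with LMP (all genes 5.96% and 4.6%). With Set1a and Set1b hairpins 3 were higher and 0 lower (all genes 6.17% and 3.83%), against 2 and 0 with their scrambled control (all genes 5.56% and 3.46%). In the Pnuts set 6 were higher and 0 lower with the hairpin (all genes 8.41% and 4.19%), against 5 and 0 with the scrambled hairpin (all genes 5.68% and 3.33%). Ifi203 and Ifi205 were past 2-fold in all 6 of these comparisons, Isg20 in 3 and Rsad2 in the pair of the Pnuts set. With the Pnuts-labelled hairpin Ifi205 had a log2 ratio of 2.57, beside 1.32 in scrambled control cells. After 1 h in the stranded set, 0 genes were past 2-fold with sh1137 (all genes 4.47% higher and 4.55% lower), against 1 higher and 0 lower with LMP (all genes 4.22% and 3.75%). The PYHIN genes did not lead there with sh1137. Parp14 had the highest log2 ratio (0.95), beside 0.50 for Ifi204, 0.45 for Ifi203 and -0.08 for Ifi205.

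At 2 h of LPS almost every gene was at least 2-fold higher, and at 4 h all that could be read were. In the unstranded set, 39 of 41 genes with usable values were at least 2-fold higher at 2 h than in untreated cells with sh1137 (all genes 13.1%, with 8.71% lower), and 35 of 41 with LMP (all genes 11.5%, with 7.30% lower). At 4 h these counts were 41 of 41 with sh1137 (all genes 21.1%, with 11.7% lower) and 40 of 40 with LMP (all genes 20.3%, with 11.3% lower). None of the genes with usable values was at least 2-fold lower at either time. The 2 and 4 h comparisons share the untreated library of their vector, and each is 1 pair of libraries with no test. The median log2 ratios were 2.90 at 2 h and 4.38 at 4 h with sh1137, against 1.96 and 4.04 with LMP.

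**Figure D1:**
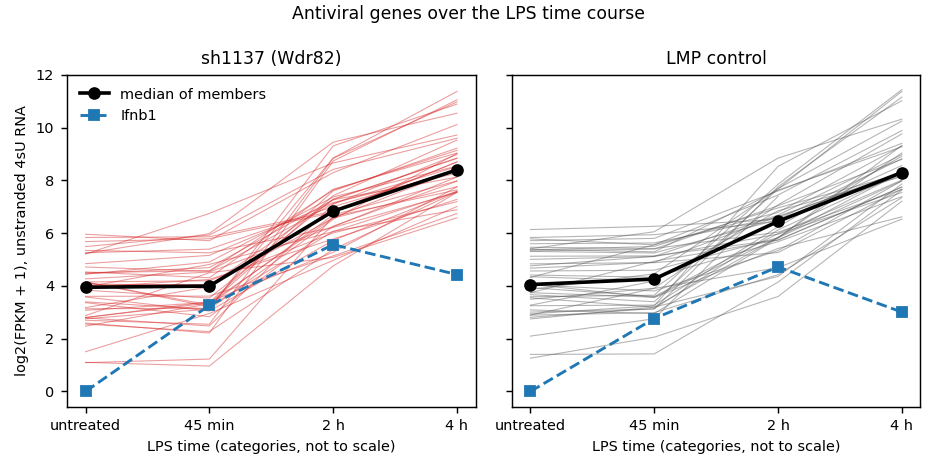
log2(FPKM + 1) of each antiviral gene (thin lines) in unstranded 4sU RNA of sh1137 cells (left) and LMP control cells (right) without LPS and after 45 min, 2 h and 4 h, with the median of the genes (black) and Ifnb1 (dashed blue). Most lines are flat to 45 min and climb at 2 and 4 h, when the median log2 change is 2.90 and 4.38 with sh1137 and 1.96 and 4.04 with LMP, while Ifnb1 is highest at 2 h.

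Ifit1, Ifit2 and the effectors Cmpk2 and Mx1 had the highest log2 ratios at 4 h in both vectors. Their deposited lower bounds were 0 at 4 h in both vectors, with upper bounds of 6775 to 13713 FPKM. The bounds at 4 h lay apart from those of untreated cells for 4 of 40 genes with LMP and 6 of 41 with sh1137, none of them these. Between the vectors none of the antiviral genes with usable values had bounds apart at 2 h or 4 h. Here and below, bounds were compared for the antiviral genes only. No share of all genes can therefore be set beside these counts. Ifit1 was 5.74, 7.68, 633 and 1898 FPKM with sh1137 (untreated, 45 min, 2 h and 4 h), against 6.67, 8.49, 368 and 2071 FPKM with LMP. Ifit2 was 7.77, 7.92, 459.7 and 2644 FPKM with sh1137, against 11.04, 11.5, 229.7 and 2775 FPKM with LMP, and Ifit3 was 5.90, 4.59, 136 and 505 FPKM with sh1137, against 7.51, 6.75, 55.3 and 639 FPKM with LMP. At 2 h all 3 were higher with sh1137, and at 4 h all 3 were slightly lower. Cmpk2, a mitochondrial nucleotide kinase whose gene lies beside Rsad2 (viperin), was 5.49, 4.84, 456 and 2012 FPKM with sh1137, against 7.05, 7.70, 215 and 2277 FPKM with LMP. Mx1, a dynamin-like GTPase that blocks influenza virus, was 5.03, 3.64, 425 and 2122 FPKM with sh1137, against 11.7, 9.55, 203 and 2647 FPKM with LMP. Both went the same way as the IFIT genes at 2 and 4 h. Rsad2 itself could be read only early, at 8.05 and 14.6 FPKM with sh1137, against 8.65 and 17.1 FPKM with LMP, because it is listed at 0 with a failed status in the 2 h and 4 h libraries of this set, and at 4 h in polyA RNA with the status for too much data. Oasl1 is likewise listed at 0 with a failed status in LMP cells at 4 h. These 7 of 1176 values were not used.

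As a share of the change at 4 h, the climb was further along at 2 h in Wdr82-depleted cells. Of the log2 change seen at 4 h, a median of 65.1% had been reached at 2 h with sh1137, against 48.7% with LMP, and the share was the larger one with sh1137 for 40 of the 40 genes with usable values. Over these 40 genes the shares ran from 34.9% to 80.5% with sh1137 and from 14.3% to 70.0% with LMP. Ifit1 had reached 80.5% with sh1137 and 69.2% with LMP, Mx1 72.6% and 52.0%, Stat2 53.6% and 32.9%, and Oas3 51.2% and 15.1%, in the same order of vectors. Other genes did so as well. Among other genes at least 2-fold higher at 4 h in both vectors the share was larger with sh1137 for 1640 of 2121 (77.3%), and among those at least 8-fold higher for 335 of 375 (89.3%), against 29 of 29 antiviral genes in that range. The share rests on 3 libraries per vector and was not tested. A lower untreated value by itself makes the share larger. In untreated cells 35 of 42 genes were lower with sh1137 in this set, but 12 of 42 in the stranded set. Oas2, Isg15, Rtp4 and Oas1a are among the 40 genes, though their levels at 2 h were still lower with sh1137.

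At 2 h of LPS, 8 of 41 genes were at least 2-fold higher with sh1137 than with LMP and 0 were lower, against 6.88% and 3.46% of all genes. The median log2 ratio was 0.60 and 36 of 41 genes lay above 0. Other genes at least 2-fold induced at 4 h in LMP cells had a median of 0.24 at 2 h, and those at least 8-fold induced 0.43. Of the former, 335 of 2610 were at least 2-fold higher with sh1137 at 2 h and 69 lower. Of the latter, 132 of 483 were higher and 15 lower, so strongly induced genes moved this way as well. The induced groups were chosen from the 4 h and untreated LMP libraries, and the antiviral genes from the fixed list. Ifi203 was 404 FPKM with sh1137, against 109 FPKM with LMP (log2 ratio 1.87, on the log2(FPKM + 1) scale used throughout, which understates differences of low genes). Dhx58, which encodes the RIG-I-like receptor LGP2 and was named after its values were seen, was 198 FPKM with sh1137, against 55.7 FPKM with LMP (1.81). Isg20 was 30.3 FPKM with sh1137, against 11.1 FPKM with LMP (1.37), and Ifit3 had a log2 ratio of 1.28. The remaining 4 were Cmpk2, Mx1, Ifi47 and Zbp1, the sensor of Z-form nucleic acid, between 1.02 and 1.08. The 5 genes below 0 were Oasl1, Oas2, Rtp4, Isg15 and Oas1a, for example Oas2 at 34.2 FPKM with sh1137, against 52.6 FPKM with LMP. The locus entries of Ifi203 and Dhx58 hold other genes (Mnda and Mndal; Cnp, Dnajc7, Nkiras2 and others), so reads that overlap these genes may have been divided between them.

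At 4 h few of the genes differed 2-fold between the vectors. Of the 40 genes, Dhx58 was the 1 that was at least 2-fold higher with sh1137 (562 FPKM with sh1137, against 252 FPKM with LMP, log2 ratio 1.16) and Oas2 the 1 that was lower (106 FPKM with sh1137, against 213 FPKM with LMP, -1.002), against 7.04% and 3.78% of all genes. The median log2 ratio was -0.10, and 14 of 40 genes lay above 0. Isg15 was 737 FPKM with sh1137, against 1213 FPKM with LMP, and Parp14 was 1493 FPKM with sh1137, against 1277 FPKM with LMP. The difference between the 2 h and the 4 h ratios was not tested, since each is 1 pair.

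Early in the response, Wdr82 depletion went with lower Oas1a, Oas2, Oasl1, Isg15, Mx1 and Rtp4 RNA and with higher Ifi203 and Ifi47 RNA. In a limma fit over the 9 early 4sU pairs (untreated to 1 h, 5 of them Wdr82 pairs, 1 coefficient for each hairpin), 4 of 42 genes were higher with sh1137 and 8 lower at adjusted p under 0.05, against 14.9% and 14.0% of all 13664 genes tested. As a whole the genes were therefore called about as often as other genes, and their median log2 ratio was 0.04. The p-values measure the spread between pairs of different times and sets, which may be technical. The 5 Wdr82 pairs come from 3 sets and were treated as independent. With the pairs of each set averaged to 1 ratio, which left 2 residual degrees of freedom, 0 of the 42 genes and 0 of all 13664 passed in limma in either direction, and at an unadjusted p under 0.05 8 of the 42 were lower and 4 higher (all genes 1820 and 1930).

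**Figure D2:**
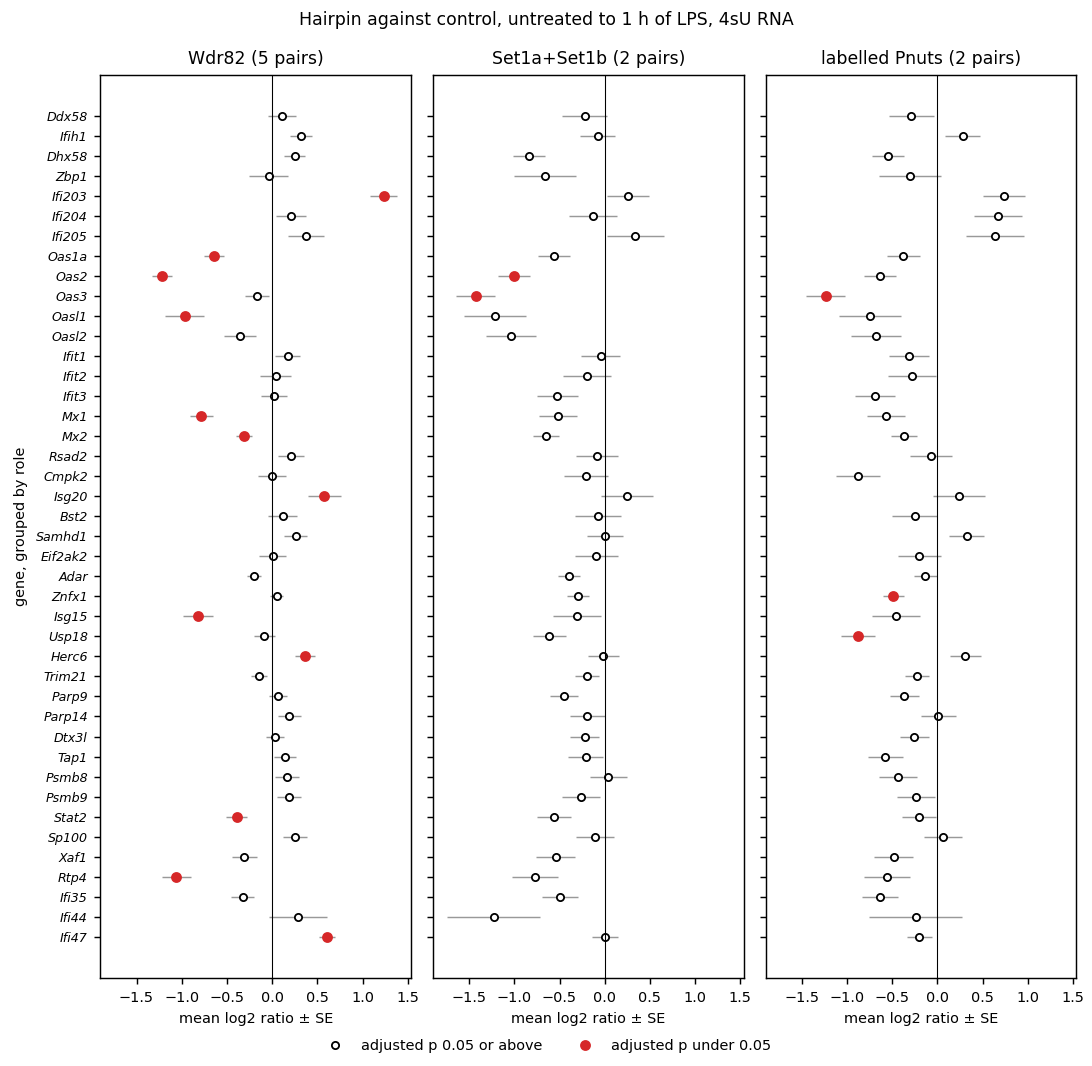
Mean log2 ratio of hairpin over control with its standard error for each of the 42 genes, in cells with sh1137 against Wdr82 (left), Set1a and Set1b hairpins (middle) and the hairpin labelled Pnuts (right), from the limma fit of 4sU RNA up to 1 h of LPS. Filled red points passed an adjusted p of 0.05: Ifi203 stands farthest to the right with sh1137 at 1.23, Oas2 farthest to the left at -1.22, and with the other hairpins Oas3 is lowest at -1.43 and -1.23.

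Among the OAS genes, which encode 2'-5' oligoadenylate synthetases and their relatives, 3 of 5 fell and all 5 estimates were below 0. Oas2 fell by 1.22 (SE 0.111, adjusted p = 0.000466) and was lower in 5 of 5 pairs. It was 11.2 and 11.2 FPKM with sh1137, against 33.9 and 34.2 FPKM with LMP in the unstranded set (untreated and 45 min), 16.1 and 16.9 FPKM with sh1137, against 37.4 and 30.6 FPKM with LMP in the stranded set (untreated and 1 h), and 15.9 FPKM with sh1137, against 33.9 FPKM with the scrambled hairpin in the DRB set. The FPKM values of Oas2 in sh1137 and control libraries did not overlap in these pairs, but its deposited bounds overlapped in each of them. Oasl1, a catalytically inactive relative that in mouse holds back translation of Irf7, fell by 0.97 (SE 0.216, adjusted p = 0.0137). Its levels were low, at 1.13 and 1.34 FPKM with sh1137, against 3.28 and 5.74 FPKM with LMP in the unstranded set and 1.46 and 1.03 FPKM with sh1137, against 3.20 and 4.48 FPKM with LMP in the stranded set. In the DRB set it was 3.52 FPKM with sh1137, against 3.87 FPKM with the scrambled hairpin, a much smaller gap. Oas1a fell by 0.64 (SE 0.114, adjusted p = 0.00543), with 14.4 and 17.96 FPKM with sh1137, against 31.1 and 33.6 FPKM with LMP in the unstranded set, 11.03 and 15.8 FPKM with sh1137, against 16.4 and 22.8 FPKM with LMP in the stranded set and 25.96 FPKM with sh1137, against 31.3 FPKM with the scrambled hairpin in the DRB set. Oas3, whose gene lies next to Oas2, had an estimate of -0.16 (SE 0.136, adjusted p = 0.394), and Oasl2 one of -0.36 (SE 0.175, adjusted p = 0.167). Oasl2 was 22.1 and 18.8 FPKM with sh1137, against 40.97 and 38.2 FPKM with LMP in the unstranded set but 60.1 and 46.6 FPKM with sh1137, against 56.8 and 50.3 FPKM with LMP in the stranded set, so the vectors separated in only 1 of these sets. Mouse Oas1a has several near-identical paralogs, and reads shared with them may have been divided by the authors' counting. Without strand, as in the unstranded set, reads of a gene and of an antisense partner cannot be told apart.

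In the ISG15 group, Isg15 fell by 0.82 (SE 0.167, adjusted p = 0.00948). It was 4.56 and 9.02 FPKM with sh1137, against 13.6 and 20.96 FPKM with LMP in the unstranded set, 5.65 and 8.80 FPKM with sh1137, against 10.2 and 10.7 FPKM with LMP in the stranded set and 4.87 FPKM with sh1137, against 7.65 FPKM with the scrambled hairpin in the DRB set. Herc6, the mouse ligase that attaches ISG15, rose by 0.36 (SE 0.109, adjusted p = 0.0412), and was 19.6 and 16.1 FPKM with sh1137, against 12.3 and 10.4 FPKM with LMP in the stranded set and 5.95 and 9.56 FPKM with sh1137, against 6.43 and 6.93 FPKM with LMP in the unstranded set. The estimate of Usp18, which removes ISG15 and damps the interferon receptor, was -0.09 (SE 0.117, adjusted p = 0.617). Parp14 was 36.6 and 62.2 FPKM with sh1137, against 41.4 and 65.4 FPKM with LMP in the unstranded set and 75.5 and 147 FPKM with sh1137, against 51.2 and 106 FPKM with LMP in the stranded set, with an estimate of 0.19 (SE 0.122, adjusted p = 0.28).

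Among the 10 other effectors, 1 rose and 2 fell. Mx1 fell by 0.78 (SE 0.131, adjusted p = 0.00441), and its relative Mx2 fell by 0.31 (SE 0.0904, adjusted p = 0.0375). Mx1 was 15.9 and 19.1 FPKM with sh1137, against 26.98 and 26.6 FPKM with LMP in the stranded set and 2.43 FPKM with sh1137, against 3.73 FPKM with the scrambled hairpin in the DRB set. Isg20 rose by 0.58 (SE 0.183, adjusted p = 0.0489) at low levels, with 1.84 and 6.75 FPKM with sh1137, against 1.40 and 3.16 FPKM with LMP in the unstranded set and 3.78 FPKM with sh1137, against 1.11 FPKM with the scrambled hairpin in the DRB set. Cmpk2 had an estimate of 0.00 (SE 0.154, adjusted p = 0.99) and Rsad2 one of 0.21 (SE 0.146, adjusted p = 0.327), and none of the 3 IFIT genes passed the test, with estimates of 0.17 for Ifit1, 0.04 for Ifit2 and 0.02 for Ifit3.

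Of the 7 sensors, Ifi203 rose by 1.23 (SE 0.148, adjusted p = 0.0012) and was higher in 5 of 5 pairs. It was 36.014 and 106 FPKM with sh1137, against 18.97 and 46.2 FPKM with LMP in the unstranded set, 90.6 and 124 FPKM with sh1137, against 26.4 and 48.98 FPKM with LMP in the stranded set and 46.7 FPKM with sh1137, against 22.4 FPKM with the scrambled hairpin in the DRB set. In untreated stranded RNA its deposited bounds lay apart, at 44.1 to 137 FPKM with sh1137 against 11.6 to 41.3 FPKM with LMP. This held for no other antiviral gene in the 10 Wdr82 pairs, and genes outside the list were not compared in this way. The PYHIN genes are similar in sequence and Ifi203 shares its entry with Mnda and Mndal, so the division of reads among them is uncertain. Ddx58 was 21.1 and 24.9 FPKM with sh1137, against 26.1 and 33.8 FPKM with LMP in the unstranded set but 42.5 and 69.5 FPKM with sh1137, against 33.1 and 43.3 FPKM with LMP in the stranded set, with an estimate of 0.11 (SE 0.156, adjusted p = 0.649). Zbp1 also went different ways in the 2 sets, at 4.86 and 3.82 FPKM with sh1137, against 5.72 and 8.17 FPKM with LMP in the unstranded set and 14.4 and 11.004 FPKM with sh1137, against 7.37 and 9.93 FPKM with LMP in the stranded set.

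In the signalling group, Rtp4, a Golgi chaperone of receptor transport that is strongly interferon-inducible, fell by 1.06 (SE 0.161, adjusted p = 0.00296). Its values were 15.3 and 15.6 FPKM with sh1137, against 40.2 and 44.1 FPKM with LMP in the unstranded set, 43.9 and 50.9 FPKM with sh1137, against 88.3 and 122 FPKM with LMP in the stranded set and 24.6 FPKM with sh1137, against 29.9 FPKM with the scrambled hairpin in the DRB set. Stat2, a subunit of ISGF3, fell by 0.39 (SE 0.120, adjusted p = 0.0425), with 10.95 and 7.26 FPKM with sh1137, against 15.5 and 13.006 FPKM with LMP in the unstranded set and 11.1 and 14.96 FPKM with sh1137, against 14.4 and 13.5 FPKM with LMP in the stranded set. Ifi47, an immunity-related GTPase, rose by 0.60 (SE 0.0891, adjusted p = 0.00263), with 13.3 and 10.6 FPKM with sh1137, against 8.52 and 8.66 FPKM with LMP in the unstranded set, 10.2 and 6.81 FPKM with sh1137, against 5.87 and 3.69 FPKM with LMP in the stranded set and 6.57 FPKM with sh1137, against 3.61 FPKM with the scrambled hairpin in the DRB set. The entry of Ifi47 covers 12 genes, among them close relatives. Its deposited bounds overlapped in each of these pairs, with a lower bound of 0 and an upper bound of 13.2 to 47.7 FPKM in the 10 libraries. Xaf1 was 25.3 and 22.5 FPKM with sh1137, against 39.2 and 41.1 FPKM with LMP in the unstranded set and 136 and 127 FPKM with sh1137, against 141 and 131 FPKM with LMP in the stranded set, with an estimate of -0.31 (SE 0.137, adjusted p = 0.131). The nuclear body gene Sp100 was 50.2 and 54.2 FPKM with sh1137, against 56.04 and 60.4 FPKM with LMP in the unstranded set and 195 and 158 FPKM with sh1137, against 124 and 119.6 FPKM with LMP in the stranded set, with an estimate of 0.25 (SE 0.132, adjusted p = 0.195). None of the 3 antigen processing genes passed the test. The immunoproteasome subunit gene Psmb8 was 39.7 and 37.2 FPKM with sh1137, against 43.2 and 41.7 FPKM with LMP in the unstranded set and 60.3 and 54.7 FPKM with sh1137, against 54.1 and 31.4 FPKM with LMP in the stranded set, with an estimate of 0.16 (SE 0.130, adjusted p = 0.377). The peptide transporter gene Tap1 was 16.7 and 8.71 FPKM with sh1137, against 14.3 and 11.1 FPKM with LMP in the unstranded set and 15.9 and 26.3 FPKM with sh1137, against 16.5 and 17.3 FPKM with LMP in the stranded set, with an estimate of 0.14 (SE 0.121, adjusted p = 0.413).

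Of the 12 calls, 0 held with 1 mean ratio per set, where adjusted p was 0.0790 for Oas2 and for Ifi203 and up to 0.186 for the others. Under every other alternative run 5 held (Oas2, Rtp4, Oas1a, Ifi203 and Ifi47). Beside that, Mx1 was lost when the 2 h and 4 h pairs were added (adjusted p = 0.155), Isg15 without both pairs of the unstranded set (0.0706), and Oasl1 without both pairs of the unstranded set (0.123) or of the stranded set (0.116). The calls of Mx2, Herc6, Isg20 and Stat2 were also each lost when any of 8 of the 9 pairs was left out, with adjusted p up to 0.108, 0.122, 0.131 and 0.113.

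The sets differed in where the bulk of the genes lay, and the mean over pairs does not show this. In the unstranded set the median log2 ratio was -0.27 in untreated cells and -0.33 at 45 min. There 0 and 1 genes were at least 2-fold higher (all genes 5.48% and 8.38%) and 6 and 5 lower (all genes 2.55% and 3.26%). In the stranded set the median was 0.32 in untreated cells and 0.16 at 1 h. There 2 and 1 genes were at least 2-fold higher (all genes 7.37% and 7.92%), and 1 and 2 lower (2 in place of 1 in untreated cells when centred on the median gene; all genes 3.65% and 4.77%). In the DRB set without DRB the median was 0.11, with 2 of 41 genes at least 2-fold higher (all genes 4.12%) and 1 lower (all genes 1.93%). The median of all genes in these pairs was between -0.03 and 0.07.

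**Figure D3:**
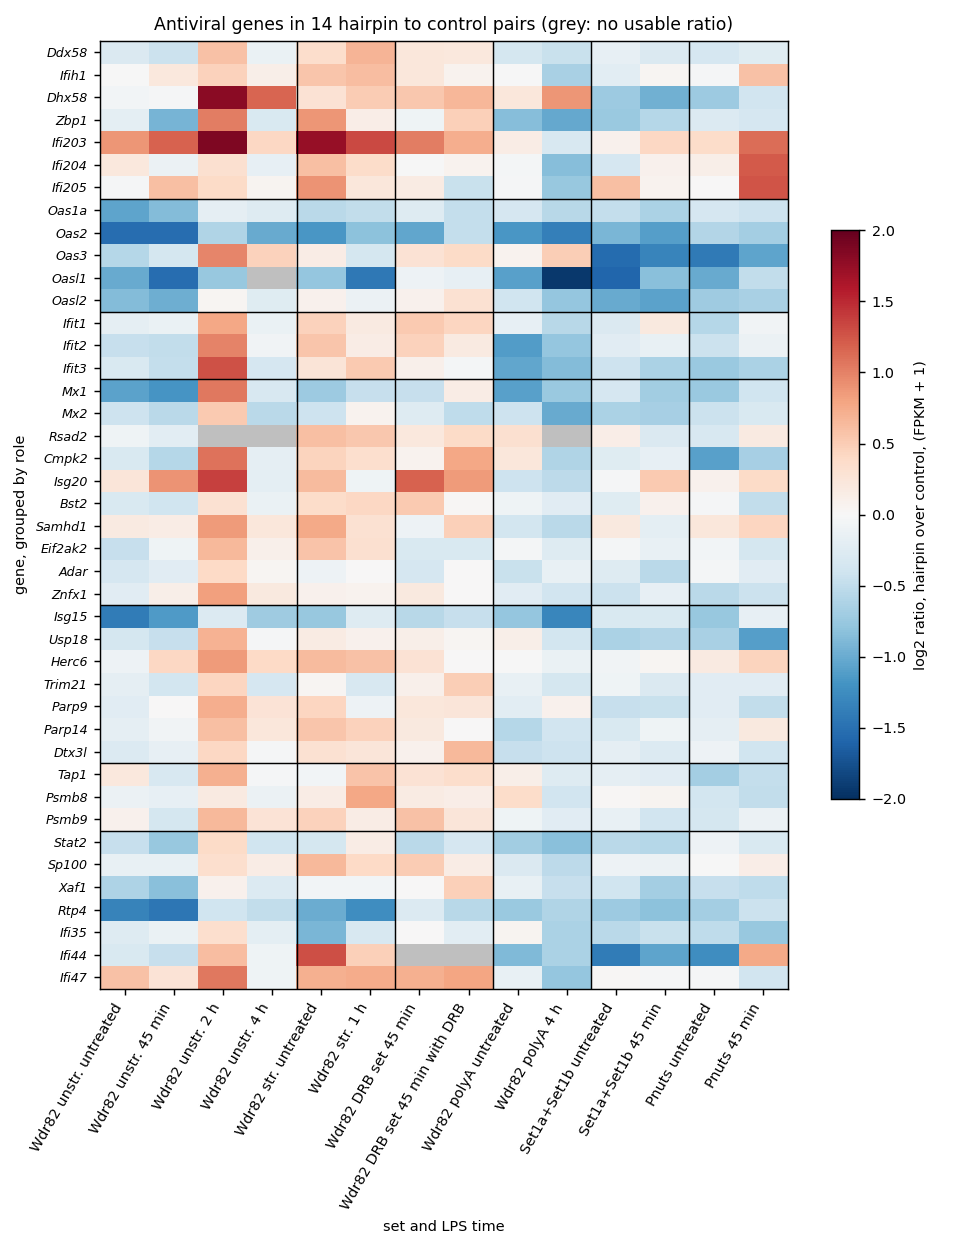
log2 ratio of FPKM + 1, hairpin over control, for the 42 genes (rows, grouped by role with lines between the groups) in the 14 pairs of libraries (columns, grouped by set), red for higher and blue for lower with the hairpin. Oas1a, Oas2, Isg15 and Rtp4 are blue in all 14 columns, Ifi203 is red in 13 of 14, and the 2 h column of the unstranded set is red for 36 of 41 genes.

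Across all 14 hairpin pairs, Oas1a, Oas2, Isg15 and Rtp4 lay below 0 in every pair. These are 4 of 39 genes with a ratio in each pair, against 1.77% of all genes with one, and no antiviral gene lay above 0 in every pair (all genes 1.99%). Some of these pairs may share a transduction, and the control vectors differ between sets. Oas2 ranged from -1.52 to -0.48, Rtp4 from -1.45 to -0.27, Isg15 from -1.39 to -0.16 and Oas1a from -1.06 to -0.18. Oasl1 lay below 0 in the 13 pairs where it could be read. Ifi203 lay above 0 in 13 of 14 pairs, with polyA RNA at 4 h of LPS as the exception (-0.32). Dhx58 and Oas3 were lower in all 4 pairs of the Set1a+Set1b and Pnuts sets, and were higher in 8 and 7 of the 10 Wdr82 pairs.

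**Figure D4:**
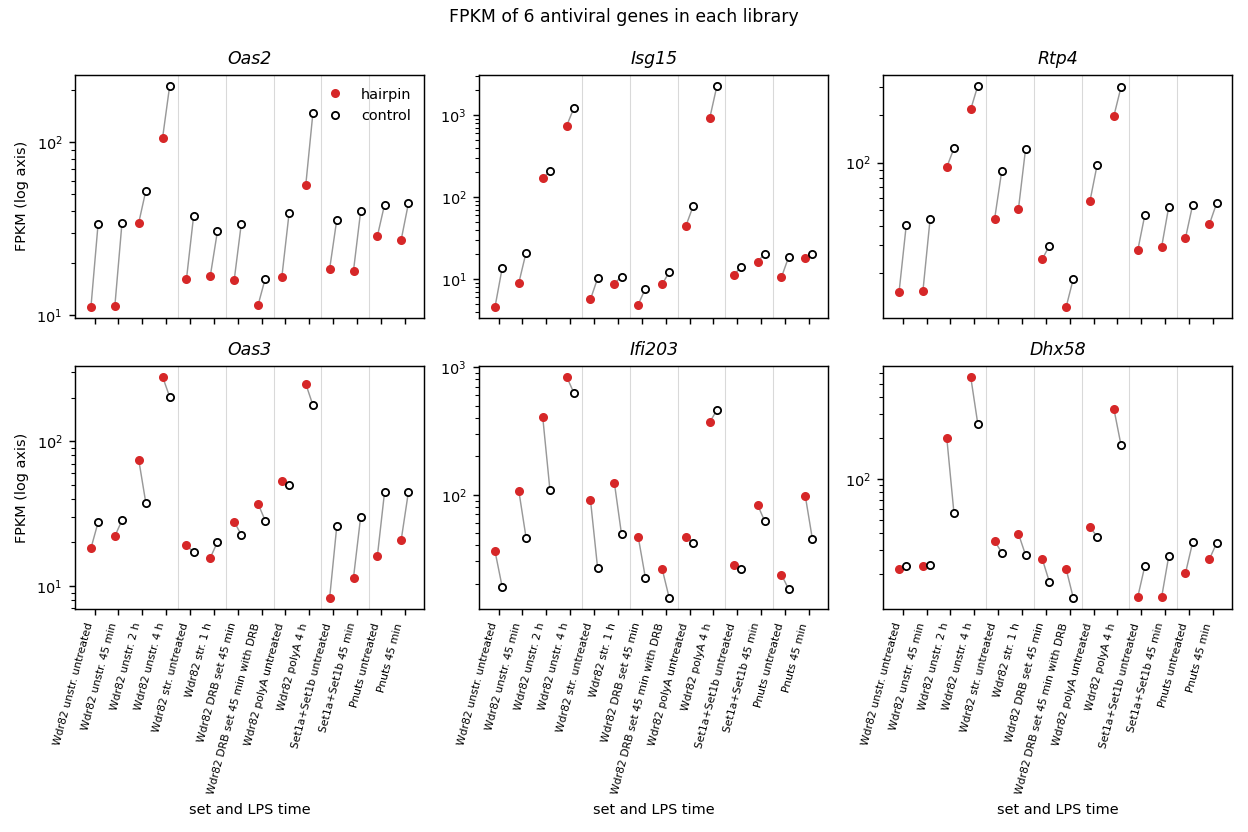
FPKM (log axis) of Oas2, Isg15, Rtp4, Oas3, Ifi203 and Dhx58 in each of the 28 libraries, with the hairpin library (red) left of its control (open) and a line joining the 2 of a pair. Oas2, Isg15 and Rtp4 are lower with the hairpin in all 14 pairs, and Oas3 is lowest with the Set1a and Set1b hairpins at 8.26 and 11.4 FPKM.

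PolyA RNA, which holds mainly mature transcripts, had lower levels of most of these genes in sh1137 cells. Without LPS, 5 of 42 genes were at least 2-fold lower and 0 higher (all genes 2.71% and 3.08%), with a median log2 ratio of -0.22. After 4 h, 5 of 41 were lower and 0 higher (all genes 2.99% and 3.72%), with a median of -0.54 and 38 of 41 below 0, beside a median of -0.10 over all genes. Relative to that median 3 of 41 were at least 2-fold lower. Oasl1 was 3.85 and 239 FPKM with sh1137, against 9.34 and 913 FPKM with LMP (untreated and 4 h), the lowest ratio at 4 h (-1.93). Oas2 was 16.7 and 56.6 FPKM with sh1137, against 38.8 and 148 FPKM with LMP, and Isg15 was 44.7 and 928 FPKM with sh1137, against 77.2 and 2289.5 FPKM with LMP. Mx1 was 8.39 and 818 FPKM with sh1137, against 18.9 and 1374 FPKM with LMP, Mx2 was 202 FPKM with sh1137, against 409 FPKM with LMP at 4 h, and Zbp1 was 28.9 and 172 FPKM with sh1137, against 53.1 and 349.6 FPKM with LMP. Ifit1, Ifit2 and Ifit3 were 1974, 1722 and 592 FPKM at 4 h with sh1137, against 2901, 2950.1 and 1086 FPKM with LMP. Stat2 was 33.010 and 161 FPKM with sh1137, against 54.1 and 288 FPKM with LMP, and Rtp4 was 57.4 and 197 FPKM with sh1137, against 97.03 and 299.6 FPKM with LMP. The 3 genes above 0 at 4 h were Dhx58 (326 FPKM with sh1137, against 176 FPKM with LMP), Oas3 (249 FPKM with sh1137, against 177 FPKM with LMP) and Parp9 (239.7 FPKM with sh1137, against 225 FPKM with LMP). All 41 genes with usable values were at least 2-fold higher at 4 h of LPS than without it in both vectors (all genes 16.0% with sh1137, with 6.18% lower, and 18.7% with LMP, with 8.79% lower), with median log2 ratios of 2.74 with sh1137 and 2.92 with LMP. The lymphocyte markers, mainly Ighm, also stood apart in this set, with a summed FPKM of 38.9 and 28.1 in sh1137 cells against 115 and 75.1 in LMP cells, beside the lower macrophage marker sums given above. Their part in the polyA ratios was not tested.

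With hairpins against Set1a and Set1b, most of the 42 genes lay somewhat lower, and of the 7 role groups the OAS family had the lowest median log2 ratio (-1.04). In the same limma fit 2 of 42 genes fell and 0 rose, against 0.820% and 1.02% of all genes, and at an unadjusted p under 0.05 the counts were 18 lower and 0 higher, against 1231 and 1250 of the 13664 genes. The median log2 ratio was -0.24 beside 0.00 over all genes, and 6 of the 42 lay above 0. Oas3, a large synthetase of the family, fell by 1.43 (SE 0.214, adjusted p = 0.0263), with 8.26 and 11.4 FPKM with Set1a and Set1b hairpins, against 25.9 and 30.01 FPKM with the scrambled hairpin (untreated and 45 min of LPS). Its deposited bounds lay apart in both pairs, at 4.51 to 12.02 FPKM with the hairpins against 14.9 to 36.9 FPKM with the scrambled hairpin in untreated cells. Oas2 fell by 1.01 (SE 0.175, adjusted p = 0.0396), with 18.5 and 18.1 FPKM with Set1a and Set1b hairpins, against 35.7 and 39.9 FPKM with the scrambled hairpin. The other 3 OAS genes did not pass the test. Oasl1 was 3.12 and 6.93 FPKM with Set1a and Set1b hairpins, against 11.4 and 13.2 FPKM with the scrambled hairpin with an estimate of -1.21 (SE 0.342, adjusted p = 0.115), and its bounds lay apart in untreated cells. Oasl2 was 25.3 and 22.7 FPKM with Set1a and Set1b hairpins, against 51.7 and 48.8 FPKM with the scrambled hairpin (-1.04), and Oas1a was 23.6 and 26.5 FPKM with Set1a and Set1b hairpins, against 33.3 and 41.8 FPKM with the scrambled hairpin (-0.56). Rtp4 was 27.996 and 29.4 FPKM with Set1a and Set1b hairpins, against 47.011 and 52.8 FPKM with the scrambled hairpin and Isg15 11.1 and 16.2 FPKM with Set1a and Set1b hairpins, against 13.96 and 20.3 FPKM with the scrambled hairpin, with estimates of -0.78 (SE 0.255, adjusted p = 0.164) and -0.31 (SE 0.264, adjusted p = 0.609). Stat2 was 10.4 and 9.54 FPKM with Set1a and Set1b hairpins, against 15.6 and 14.6 FPKM with the scrambled hairpin, with an estimate of -0.56 (SE 0.189, adjusted p = 0.178). Dhx58 was 13.5 and 13.5 FPKM with Set1a and Set1b hairpins, against 22.97 and 27.1 FPKM with the scrambled hairpin, with an estimate of -0.84 (SE 0.178, adjusted p = 0.0647). Among genes whose estimates were near 0 were Ifi47 (0.00), Samhd1 (0.00) and Psmb8 (0.04). Oas3 lost its call without either pair of this set (adjusted p up to 0.227) and Oas2 without either of these or any of 4 other pairs (up to 0.358). Without both pairs of the stranded Wdr82 set 0 of the 42 genes were called, and 0 with 1 mean ratio per set (at an unadjusted p under 0.05, 17 and 4 lower and 0 higher in either). Counted per pair, 4 of 42 genes were at least 2-fold lower and 0 higher in untreated cells (all genes 2.17% and 3.08%) and 4 lower and 0 higher at 45 min (all genes 2.92% and 3.91%). Oas3, Oasl2 and Ifi44, a GTP-binding protein gene named after its values were seen, were in both groups, with Ifi44 at 1.87 and 1.52 FPKM with Set1a and Set1b hairpins, against 6.57 and 4.24 FPKM with the scrambled hairpin. Lyz2, the macrophage lysozyme gene, was 4569 and 6177 FPKM with the hairpins against 1927 and 2280 FPKM with the scrambled hairpin, and its part in the ratios was not tested.

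In the libraries labelled Pnuts all 5 OAS genes and all 3 IFIT genes had estimates below 0. Of 42 genes 3 fell and 0 rose, against 6.43% and 8.13% of all genes, so that the share that fell (7.14%) was near that of all genes. At an unadjusted p under 0.05, 12 were lower and 2 higher, against 1835 and 2415 of the 13664 genes. The median log2 ratio was -0.30 beside 0.03 over all genes. Oas3 fell by 1.23 (SE 0.214, adjusted p = 0.0131), with 16.1 and 20.9 FPKM with the Pnuts-labelled hairpin, against 44.4 and 44.6 FPKM with the scrambled hairpin (untreated and 45 min). Usp18 fell by 0.88 (SE 0.185, adjusted p = 0.0223), with 7.74 and 5.25 FPKM with the Pnuts-labelled hairpin, against 12.7 and 12.5 FPKM with the scrambled hairpin. Znfx1, a helicase that senses double-stranded RNA at mitochondria, fell by 0.49 (SE 0.120, adjusted p = 0.035), with 44.6 and 45.7 FPKM with the Pnuts-labelled hairpin, against 65.4 and 61.9 FPKM with the scrambled hairpin. The entry of Znfx1 covers 5 genes, so reads may have been divided among them. Cmpk2 was 3.99 and 5.43 FPKM with the Pnuts-labelled hairpin, against 9.58 and 9.21 FPKM with the scrambled hairpin and Oas2 28.7 and 27.4 FPKM with the Pnuts-labelled hairpin, against 43.6 and 44.3 FPKM with the scrambled hairpin, with adjusted p of 0.051 and 0.0506. The PYHIN sensors went the other way without passing the test. After 45 min, Ifi203, Ifi204 and Ifi205 were 97.6, 67.4 and 46.4 FPKM with the Pnuts-labelled hairpin, against 44.6, 28.3 and 18.8 FPKM with the scrambled hairpin. In untreated cells the 3 were 23.7, 14.1 and 7.00 FPKM, against 18.2, 12.9 and 6.92 FPKM, so that the gap was wider after LPS. This change in the gap was not tested. Counted per pair, 4 of 42 genes were at least 2-fold lower and 0 higher in untreated cells (all genes 2.89% and 3.82%), and 2 lower and 3 higher at 45 min (all genes 4.21% and 6.65%), the 3 being these PYHIN genes. Oas3 and Usp18 lost their calls without either pair of this set (adjusted p up to 0.104 and 0.265), and Znfx1 without 5 of the 9 pairs (up to 0.204). Without both pairs of the unstranded Wdr82 set 8 genes were lower, without both of the stranded set 6, and with 1 mean ratio per set 0 (at an unadjusted p under 0.05, 4 lower and 2 higher). Lyz2 was 6042 and 7200 FPKM with the Pnuts-labelled hairpin, against 2017 and 2652 FPKM with the scrambled hairpin, and its part in the ratios was not tested.

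Tested against each other, the hairpins differed in 1 of the 42 genes. The log2 ratio of Ifi47 was lower with the Pnuts-labelled hairpin than with sh1137, with a difference of -0.80 (SE 0.167, adjusted p = 0.0489), with 1.41% of all genes lower and 1.61% higher in that comparison. This call held under 4 of 17 alternatives, and adjusted p was 0.0565 to 0.434 under the other 13. Oas3 missed the threshold, with -1.26 (SE 0.254, adjusted p = 0.0799) for Set1a+Set1b minus Wdr82 and -1.07 (SE 0.254, adjusted p = 0.0712) for Pnuts minus Wdr82. None of the 42 genes differed between the Set1a+Set1b and Wdr82 estimates (all genes 0.578% lower and 0.278% higher), where 8 were lower and 0 higher at an unadjusted p under 0.05, against 1058 and 854 of the 13664 genes. Between Set1a+Set1b and Pnuts-labelled hairpins 0 differed (all genes 0.556% lower and 0.329% higher), with 0 at an unadjusted p under 0.05 in either direction (all genes 1240 lower and 943 higher).

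DRB gave similar ratios of these genes in both vectors. With DRB, 3 of 41 genes were at least 2-fold higher than without it in sh1137 cells and 4 lower (all genes 13.7% and 15.9%), and 4 higher and 5 lower in scrambled control cells (all genes 16.7% and 16.0%). FPKM is relative to the RNA that remains, so a gene can be higher without more transcription. All genes had a median log2 ratio of 0.18 in sh1137 cells and 0.16 in control cells, and relative to these 0 genes were higher and 9 lower in sh1137 cells, and 2 higher and 7 lower in control cells. Mx2 was 0.513 FPKM with DRB and 7.84 without it in sh1137 cells, and 1.16 with and 9.57 FPKM without it in control cells, the lowest ratios (-2.55 and -2.29). Adar, the RNA-editing deaminase, followed at -1.37 in sh1137 and -1.71 in control cells. Psmb9, which shares its entry with Tap1, had the highest ratios, 1.15 and 1.49, and Psmb8 was 88.7 FPKM with and 42.96 without DRB in sh1137 cells. Across the 41 genes the DRB ratio in sh1137 cells and that in control cells had a Pearson r of 0.91, and across all genes of 0.77. By rank the 2 were closer, with a Spearman rho of 0.88 for the 41 genes and 0.84 for all genes. These points are genes of the same 4 libraries and are not independent replicates. With DRB present, 0 genes were at least 2-fold higher or lower with sh1137 than with the scrambled hairpin (all genes 4.26% and 5.08%), and Oas2, at 11.4 FPKM with sh1137, against 16.3 FPKM with the scrambled hairpin, had a log2 ratio of -0.48.

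**Figure D5:**
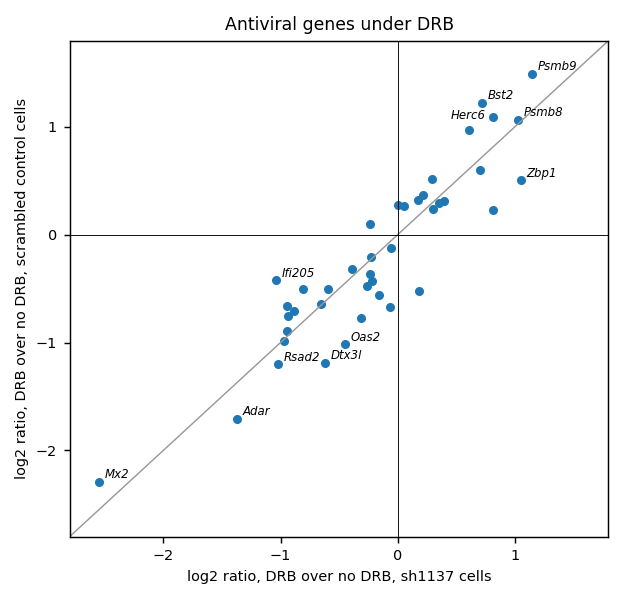
log2 ratio of FPKM + 1 with DRB over without it after 45 min of LPS, in sh1137 cells (x axis) and scrambled control cells (y axis), for 41 genes, named where 2-fold in either vector, with the line of equal ratios. Mx2 lies lowest at -2.55 and -2.29, Psmb9 highest at 1.15 and 1.49, and the points follow the line.

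The genes that start the response were read beside these. Ifnb1 was 8.61, 46.3 and 20.6 FPKM with sh1137, against 5.79, 25.3 and 7.05 FPKM with LMP in unstranded 4sU RNA (45 min, 2 h and 4 h) and listed at 0 in both vectors without LPS. In polyA RNA at 4 h it was 41.97 FPKM with sh1137, against 10.1 FPKM with LMP (log2 ratio 1.96). Ifnb1 RNA was thus higher with sh1137 at each of these LPS times, while the polyA levels of 38 of 41 antiviral genes at 4 h were lower. Each of these times is 1 pair of libraries. In the limma fit of the early pairs Ifnb1 did not pass the test for Wdr82, at 0.35 (SE 0.194, adjusted p = 0.219). Of 8 genes from TLR4 to interferon beta, 1 rose and 0 fell in the Wdr82 fit, where 14.9% of all genes rose and 14.0% fell. This was Ikbke, the inducible kinase of IRF3, at 0.84 (SE 0.0982, adjusted p = 0.00111). Of 12 genes of interferon receptor signalling, 2 rose and 0 fell, so both counts were near the share of all genes. The 2 were Tyk2 (0.37) and Irf2 (0.22). Of 8 measured genes of other nucleic acid sensing, 3 rose and 0 fell. They were the DNA receptor gene Tlr9 at 1.24 (SE 0.0607, adjusted p = 4.62e-05), Mavs (0.33) and Tmem173, which encodes STING (0.37). In the Set1a+Set1b fit (all genes 1.02% higher and 0.820% lower) none of the 28 genes passed the test, with 2 at an unadjusted p under 0.05 higher and 3 lower. In the Pnuts-labelled fit (all genes 8.13% higher and 6.43% lower) Tlr4 at 1.08 (SE 0.147, adjusted p = 0.00649) and its adaptor gene Ticam2 at 1.27 (SE 0.196, adjusted p = 0.0092) rose, and Irf7, a main regulator of type I interferon genes, at -1.05 (SE 0.282, adjusted p = 0.045), the feedback inhibitor gene Socs1 at -1.29 (SE 0.208, adjusted p = 0.0103), Ptpn6 (-0.46) and Tlr9 (-0.47) fell. Irf7 was 20.7 and 23.7 FPKM with the Pnuts-labelled hairpin, against 44.7 and 49.2 FPKM with the scrambled hairpin, and in the unstranded set it was 14.6, 19.4, 207 and 709 FPKM with sh1137, against 30.2, 31.3, 149 and 792 FPKM with LMP (untreated, 45 min, 2 h and 4 h), lower with sh1137 before 2 h and higher at 2 h. In the early LPS fit of control cells (all genes 4.56% higher and 1.92% lower), Irf1 rose by 3.45 (SE 0.123, adjusted p = 0.00348) and the inhibitor gene Socs3 by 4.99 (SE 0.281, adjusted p = 0.00435), while Irf7 at 0.02 (SE 0.0910, adjusted p = 0.908) did not pass the test.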

How the data were processed

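The deposited values are FPKM per gene, with lower and upper bounds and a status, in 6 tables of 28 libraries. Per the submitters' processing notes the authors used TopHat 1.3.1, Cufflinks 2.1.1, Cuffdiff 2.1.1 and mm9. Which gene annotation, which library scaling and which confidence level they set is not given in the sources used here. Coordinates of promoters are those of RefSeq (GRCm38.p6), and no mm9 sequence was used.

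From the FPKM, log2((FPKM + 1)/(FPKM + 1)) of each hairpin library over its control, or LPS over untreated, was computed within a table. Values with a status other than OK were not used. The locus entries of 12 of the 42 genes hold other genes, Oasl1, Znfx1, Tap1 and Psmb9 among them, so reads may have been divided there. limma 3.58.1 (R 4.3.3) was fitted across all genes with a mean FPKM of at least 1, and p-values were adjusted by Benjamini-Hochberg over all genes tested. Other pairs have 1 library a side and no test, and genes with 1 FPKM in either library and at least a 2-fold difference were counted. Python 3.11.15 with pandas 2.3.3, numpy 2.4.6 and matplotlib 3.10.9 was used for the rest. The fit was run on simulated data with noise drawn independently for each pair, so it cannot show whether pairs of a set are independent. Of 50 genes raised by 1 on the log2 scale, 42 were recovered for Wdr82, 26 for Set1a+Set1b, 28 for Pnuts and 26 for LPS. Of 50 lowered by 1, 32, 32, 25 and 25 were recovered, in the same order.

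The genes and lists were chosen with earlier results of these data known. Any of the 42 could be named. By rule, values per library were given for the 2 genes of each role with the highest mean FPKM, those with the highest and lowest mean ratio over the 9 early pairs, and Isg15, Rsad2, Ifit1, Oasl1, Oas3 and Stat2. Per-library values of other genes, among them Dhx58, Ifi44, Usp18 and Znfx1, were added after their values were seen. Alternatives were another pseudocount, other filters, centring on the median gene, other pairs, leaving out each pair or both pairs of a set, and 1 mean ratio per set. Every fit treats its values as independent.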

Additional observations from a re-analysis of the deposited data

Results flagged for a closer look

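The difference in Ifi47 between hairpins was picked out because the same contrast, hairpin over control, gave different effects for 2 hairpins when the difference itself was tested. The log2 ratio of Ifi47 differed by -0.80 for the Pnuts-labelled hairpin minus sh1137 (limma, adjusted p = 0.0489). Ifi47 was 7.78 and 7.64 FPKM with the Pnuts-labelled hairpin, against 7.88 and 10.3 FPKM with the scrambled hairpin in the Pnuts set, 13.3 and 10.6 FPKM with sh1137, against 8.52 and 8.66 FPKM with LMP in the unstranded Wdr82 set, 10.2 and 6.81 FPKM with sh1137, against 5.87 and 3.69 FPKM with LMP in the stranded set and 6.57 FPKM with sh1137, against 3.61 FPKM with the scrambled hairpin in the DRB set. It was higher with sh1137 in 5 of 5 early Wdr82 pairs. Ppp1r10, the gene of PNUTS, was higher in the libraries labelled Pnuts, and the Ifi47 entry holds 12 genes. Their part in the difference was not tested. The sh1137 estimate pools 5 pairs of 3 sets, and its control is LMP in 4 pairs and a scrambled hairpin in 1, while the control of the Pnuts set is a scrambled hairpin, so that hairpin, set and control vector cannot be told apart. The call held under 4 of 17 alternatives (adjusted p from 0.0338 to 0.0479) and was lost under 13 (0.0565 to 0.434), among them leaving out any of 8 of the 9 pairs.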

How the results depend on the processing

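Of 23 single-gene calls, 22 of the hairpin and LPS fits and the Ifi47 difference between hairpins, all were lost under at least 1 alternative and 0 reversed. Of the 23, 5 (Oas2, Rtp4, Oas1a, Ifi203 and Ifi47 for Wdr82) were lost only with 1 mean ratio per set. That alternative, and leaving out both pairs of a set, were chosen after seeing the data. With 1 mean ratio per set the counts became 0 lower and 0 higher for Wdr82, 0 lower for Set1a+Set1b and 0 lower for Pnuts, with fewer values in the fit. Without both pairs of the unstranded set they became 4 lower for Wdr82 and 8 lower for Pnuts, and without both of the stranded set 2 higher for Wdr82, 0 lower for Set1a+Set1b and 6 lower for Pnuts. For genes higher after early LPS the count of 5 became 2 with a pseudocount of 0.1 FPKM, 3 with no filter and 3 when centred on the median gene. For Wdr82 the 4 higher became 2 with no filter, 7 with the 2 h and 4 h pairs and 2 with the 5 Wdr82 pairs alone, and the 8 lower became 4 with the 2 h and 4 h pairs. For the Pnuts-labelled hairpin the 3 lower became 5 with a mean FPKM of at least 5, 5 when centred and 5 with the spread moderated along the expression level, an alternative chosen after seeing the data. Leaving out each pair in turn gave 6 to 8 lower and 2 to 3 higher for Wdr82, 0 to 3 lower for Set1a+Set1b, 0 to 6 lower for Pnuts and 0 to 7 higher for LPS. The cause was not tested. No paired analysis was possible because each group has 1 library, so no replicate numbers exist that could serve as a block. The ratios already pair each library with the one it is set against in its own table.

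Counts past 2-fold also moved. With a pseudocount of 0.1 FPKM they became 2 higher (unstranded, 45 min), 3 lower (stranded, untreated), 1 higher and 1 lower (sh1137 with DRB), and, for LPS over untreated, 1 lower (unstranded sh1137, 45 min), 2 higher (stranded LMP, 1 h), 5 higher (Set1a+Set1b, 45 min) and 1 lower (scrambled control of the Pnuts set). With at least 5 FPKM they became 1 higher (stranded, untreated), 1 lower (stranded, 1 h) and 1 higher (DRB set, 45 min). Centred on the median gene they became 0 lower (unstranded, 4 h), 2 lower (stranded, untreated), 3 lower (polyA, 4 h), 1 lower (LPS 45 min, sh1137), 0 higher (LPS 1 h, LMP), and for DRB 0 higher and 9 lower with sh1137 and 2 higher in control cells. Depth is unknown, so low genes such as Isg20, Oasl1 and Ifi44 are limited most.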
